A study of Mus musculus with 4 samples.

Results

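The canonical histone genes were read by 57 of the 39429 non-control probes on each array, which were all probes whose gene symbol begins with Hist1h, Hist2h, Hist3h or Hist4h. They carry 49 symbols and were sorted by the class in the symbol, with 6 probes for the linker histone H1, 16 for H2A, 13 for H2B, 8 for H3 and 14 for H4. A single probe read 42 of the genes, whereas 6 genes had 2 probes and Hist1h4i had 3. The probe annotation (mm9) places 40 of them on chromosome 13, 10 on chromosome 3, 3 on chromosome 11 and 2 on chromosome 6, and gives no place for 2. Hist3h2bb-ps is a pseudogene by its name, and Hist1h1t, Hist1h2aa and Hist1h2ba are genes known from the testis.

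Total RNA of E14tg2a cells, a feeder-independent line of mouse embryonic stem (ES) cells kept in medium with serum and LIF, was labeled with Cy3 and hybridized to 4 1-color arrays of one slide. One array was of untreated cells (0 h), another of cells 72 h after transfection with control siRNA, and the other two of cells 48 h and 72 h after transfection with siRNA against Rif1, a chromatin protein of replication timing. By the methods, the Rif1 siRNA was a mix of 2 duplexes, mRif1#2 and NC#1. The comparison asks which transcripts differ once Rif1 is depleted, and the 48 h array has no control array of its own time. With 1 array a condition, the differences are given without p-values, replicates cannot check them, and the precision is limited by the number of arrays. Because the RNA came from whole cultures, fewer cells of a type and less RNA per cell cannot be told apart.

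Canonical histones package newly made DNA, and their genes lie in clusters that are transcribed mainly during S phase. Their mRNAs have no introns and normally end not in a poly(A) tail but in a short stem-loop, which the stem-loop binding protein SLBP holds and which the U7 snRNP cuts downstream. Some of the genes can also give polyadenylated transcripts that run past the stem-loop, and these are known from differentiated and non-dividing cells. The labeling kit primes cDNA from poly(A) tails, so the part of each histone transcript that is labeled was not determined here.

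The level of a probe is its processed signal over the 75th percentile of all non-control spots on that array, and differences are log2 ratios of such levels between arrays. Levels of different probes were ranked only to choose which probes to describe and to sort probes by brightness, and they were summed within a cell type list, but no level is compared between genes. Values listed without a label run in the order untreated, control siRNA, 48 h and 72 h of Rif1 siRNA. The Rif1 probe stood at 5.55 and 5.42 on the untreated and control siRNA arrays and at 2.15 and 4.15 on the Rif1 siRNA arrays of 48 h and 72 h, so the targeted transcript was lowest on the 48 h array. Spots well above background made up 58.8% to 62.8% of the 2 arrays without Rif1 siRNA and 71.5% to 74.1% of the 2 arrays with it. The lowest level well above background was 0.0236, 0.0159, 0.00779 and 0.00543 in the order untreated, control siRNA, 48 h and 72 h of Rif1 siRNA. Dim probes could thus be followed to lower levels on the Rif1 siRNA arrays, and a fold change against a dim side is given as a lower bound against that array's lowest level or the probe's own, if higher. Of the histone probes, 50 were well above background on all 4 arrays, 54 passed the filter on dim probes, and Hist1h1d, Hist1h2ac and 1 of both Hist4h4 probes (A_51_P148860) were well above background on none. The 4 others that passed are H2B probes, of which Hist1h2bq, Hist3h2bb-ps and 1 of both Hist2h2bb probes (A_51_P361620) were well above background on the 2 Rif1 siRNA arrays alone, whereas Hist2h2be was dim on the untreated array. Since the 3 entered through the arrays with the lower detection limit, the results lead with medians and counts over the 50. The ES cell list was measured for 9 of 9 genes, with a summed level between 358.0 and 381.9 on the 4 arrays. At 72 h of Rif1 siRNA against control siRNA, 4 of the 9 were above 0 and their median was -0.03. The values ran from -0.24 for Utf1 to 0.59 for Pou5f1.

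The sequences of the probes show what each one can tell apart. Several H2A genes differ there by a few bases, and the following 60-base probes cover the same stretch of coding sequence up to the stop codon. Capitals mark the bases that differ from the Hist1h2ak probe, and the count of these is 5 for Hist1h2af, 6 for Hist1h2an and 5 for Hist2h2aa2.
Hist1h2ak: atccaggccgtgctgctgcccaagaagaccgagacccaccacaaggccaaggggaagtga
Hist1h2af: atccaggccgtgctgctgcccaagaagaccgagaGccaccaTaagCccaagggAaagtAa
Hist1h2an: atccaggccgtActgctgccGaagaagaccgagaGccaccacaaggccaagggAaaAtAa
Hist2h2aa2: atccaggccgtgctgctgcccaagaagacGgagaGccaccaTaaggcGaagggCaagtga
Because such probes can bind transcripts of several copies, 17 of the 57 probes are annotated to 2 or more RefSeq transcripts, and 17 share a run of 16 bases with another histone probe. Their values are uncertain as to the gene.

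Other probes reach the end of the mRNA, and 6 of them hold the stem-loop itself. The letters searched were GGNNCTTNTNAGNGCC on the strand of the probe, which 7 of all 39429 probes hold (0.0178%). The windows below are at most 30 bases long, and capitals mark the match.
Hist1h3a: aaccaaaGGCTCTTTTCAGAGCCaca
Hist1h3g: ctttaaaGGCTCTTCTTAGAGCCaccca
Hist1h3i: aacaaaaGGCTCTTTTCAGAGCCccctc
Hist1h4m: aactaaaGGCCCTTTTCAGGGCCatccaa
Hist2h2aa2 (probe A_55_P1962084): taaaaaGGCTCTTTTCAGAGCCacccact
Hist2h2bb (probe A_55_P2036883): cccaaaaGGCTCTTTTCAGAGCCacttta
A further 3 histone probes hold AATAAA, the usual signal for polyadenylation. Hist3h2ba lies past the annotated end of its gene, Hist1h2ag inside it, and the Hist2h2bb probe was matched to no RefSeq gene. These letters occur in 12.6% of all probes, so their presence alone sets no probe apart. They are in capitals here.
Hist2h2bb (probe A_51_P361620): gttgtcagtttgAATAAAgacagagaaact
Hist3h2ba: cataatggtattAATAAAtttggttca
Hist1h2ag: aggccaaggggaAATAAAaccctttatac

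With Rif1 siRNA at 72 h, 37 of the 50 histone probes that were well above background on all arrays stood within 0.5 of the control siRNA array on the log2 scale (74.0%), beside 92.8% of all such probes. Of the 13 outside this range, 10 stood higher, from every class, and 3 stood lower, namely Hist1h4h, Hist3h2a and Hist1h2al. Over 2-fold higher were 2 of the 50 (Hist1h2bg and Hist1h4i), beside 1.81% of all probes of this kind, and 0 were over 2-fold lower, beside 0.435%. Over all that passed the filter, 3 of 54 were over 2-fold higher, beside 2.83% of all probes, and 0 lower, beside 1.0%. The added probe, Hist2h2bb, counts as a lower bound and had passed the filter through the Rif1 siRNA arrays alone. At a 1.5-fold threshold, 7 of the 50 were higher, beside 3.91%, and 3 were lower, beside 1.59%. Over the 54, these were 10, of them 2 as lower bounds, beside 5.52%, and 3, beside 2.37%. With normexp background correction Hist1h2bg stood at 0.78 and Hist2h2bb at 0.67, which left Hist1h4i as the 1 probe over 2-fold. The median of the 50 probes was -0.14, with 33 below 0 (66.0%), and that of all probes well above background on the 4 arrays was -0.07, with 64.1% below 0. The median of the 54 was -0.13, beside -0.05 for all that passed. With quantile normalization the median of the 54 was -0.0071, with 26 of 54 above 0, beside -0.05 for all that passed. The histone median thus lay below that of all probes as first computed, and above it with quantile normalization. Against the untreated array the histone median was -0.04, likewise with 26 of 54 above 0. The dot plot of levels shows every member on every array.

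**Figure D1:**
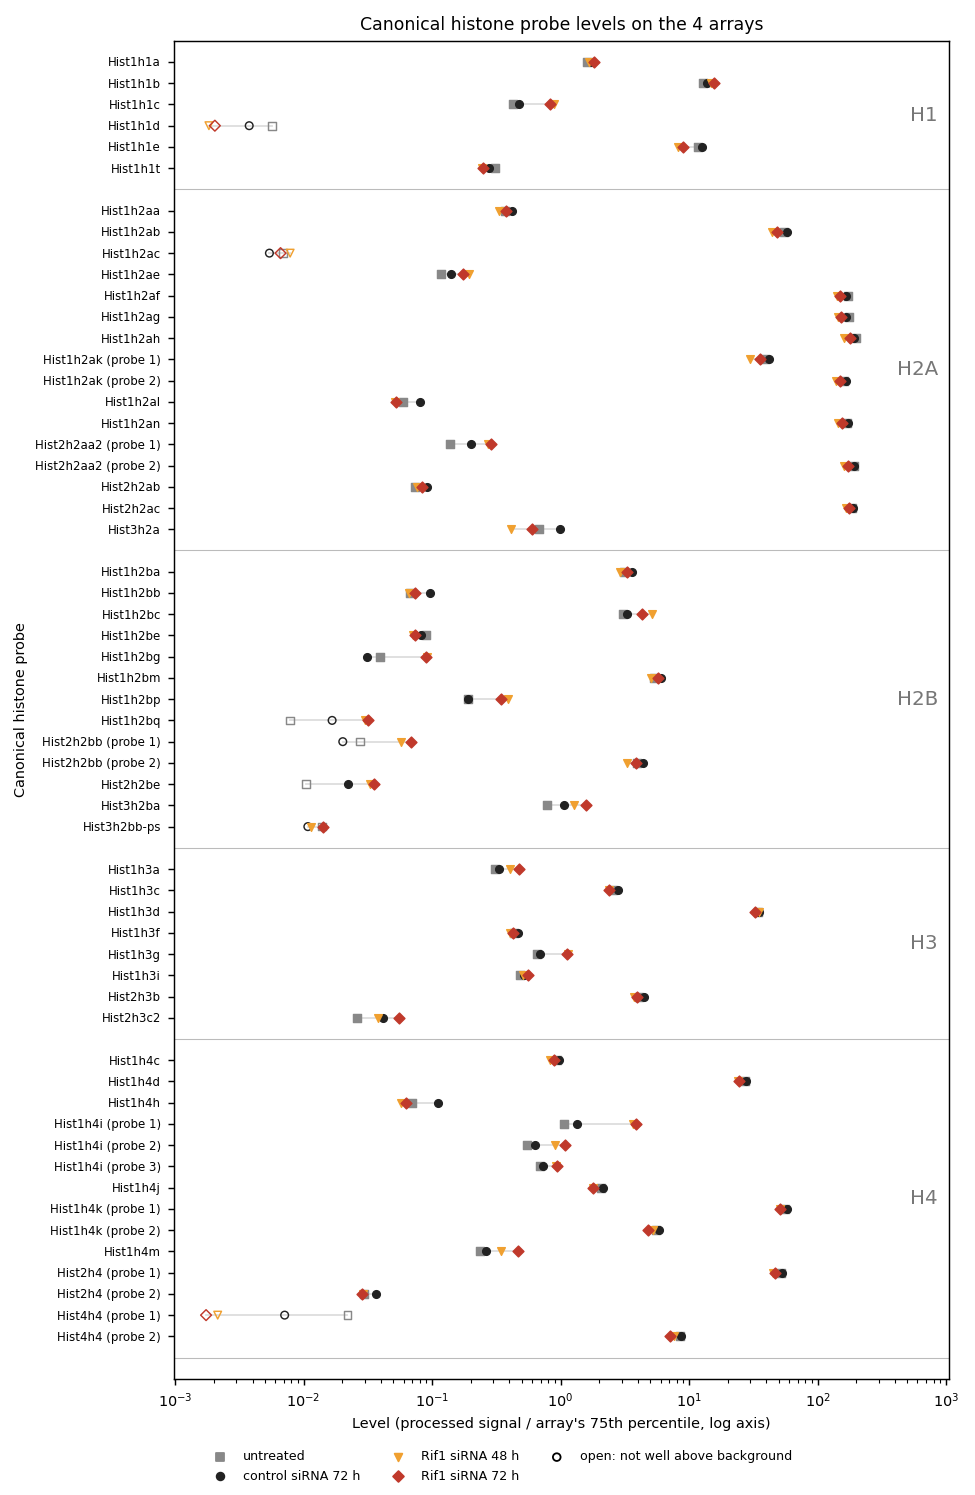
Level of each of the 57 canonical histone probes (rows, grouped by class) on the 4 arrays, on a log axis; each marker is 1 array, open markers are not well above background, and probes of 1 gene are numbered. The 4 markers lie close together for most probes, and Hist1h2bg, the probes of Hist1h4i and the dim probe of Hist2h2bb show both Rif1 siRNA arrays to the right of the other 2.

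Among the H2B genes, which encode the partner of H2A in the nucleosome, 4 of the 9 probes well above background on all arrays were above 0 at 72 h, and their median was -0.07. The 4 dim ones are given with their own values. Hist1h2bg (mm9 chromosome 13, 23663823 to 23663882) had levels of 0.0396 untreated, 0.0312 with control siRNA, 0.0912 at 48 h and 0.0904 at 72 h. Both Rif1 siRNA arrays lay above both other arrays, and the difference at 72 h was 1.53 on the log2 scale, a 2.90-fold change. The probe A_51_P361620 of Hist2h2bb (chromosome 3, 96082754 to 96082813) was dim on both arrays without Rif1 siRNA, at 0.0274 and 0.0202, passed the filter through the other two alone, and stood at 0.0569 at 48 h and 0.0681 at 72 h. This is at least 3.38-fold higher at 72 h. The other Hist2h2bb probe, which holds the stem-loop, gave 3.96, 4.37, 3.29 and 3.84 in that order of arrays. The 2 probes share a symbol in the array annotation, but A_51_P361620 was matched to no RefSeq gene. Their differences are therefore not set against each other as values of a single gene.

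Hist1h2bp gave 0.192 untreated, 0.189 with control siRNA, 0.392 at 48 h and 0.347 at 72 h, a 1.83-fold difference at 72 h with no overlap between the arrays with and without Rif1 siRNA. Both Rif1 siRNA arrays lay above the other 2 for 14 of the 50 histone probes (28.0%), beside 18.1% of all probes well above background on the 4 arrays, and below them for 27 (54.0%), beside 43.3%. These shares vary with level. With a mean level of 10 or more, they lay below for 13 of 15 histone probes (86.7%), beside 77.7% of other probes, and above for 1 (6.7%), beside 4.9%. Hist1h2bc gave 3.06, 3.31, 5.19 and 4.27 in the same order, and 0.37 on the log2 scale at 72 h. Hist3h2ba gave 0.788, 1.06, 1.26 and 1.57, so that its control array already lay above the untreated one, and its difference at 72 h was 0.57. Hist2h2be, known as an H2B form of olfactory neurons, gave 0.0104 (dim), 0.0223, 0.0328 and 0.0354. Hist1h2bq was dim on both arrays without Rif1 siRNA and stood at 0.0301 and 0.0315 with it, at least 1.89-fold higher at 72 h. The pseudogene probe Hist3h2bb-ps, likewise dim on both arrays without Rif1 siRNA, stood at 0.0141 at 72 h, under the lowest level well above background on the control array, so no fold is given for it.

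The H2B probes below 0 at 72 h were Hist1h2bb at -0.39, the stem-loop probe of Hist2h2bb at -0.19, Hist1h2be at -0.155, the testis gene Hist1h2ba at -0.13 and Hist1h2bm at -0.07. Hist1h2bm gave 5.30, 6.01, 5.03 and 5.73, with all 4 arrays inside a narrow range. Over all 13 H2B probes that passed the filter, the median was 0.39, which is the value of the dim pseudogene probe. With normexp background correction the median of the 13 was -0.071, and over the 8 H2B probes brighter than the median of all probes it was -0.10.

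Among the H4 genes, which all encode the same protein, Hist1h4i stood apart, because each of its 3 probes was higher on both Rif1 siRNA arrays. The probe A_51_P505521 (chromosome 13, 22132591 to 22132650), which was matched to no RefSeq gene and is annotated to no RefSeq transcript, so that the symbol is the array annotation's own, had levels of 1.05 untreated, 1.34 with control siRNA, 3.67 at 48 h and 3.83 at 72 h, a 2.86-fold difference at 72 h. A_55_P2158697 (22133139 to 22133198), inside the gene span, gave 0.550, 0.628, 0.910 and 1.08, a 1.73-fold difference. A_55_P2174198, which has no place in mm9 and shares 16-base runs with 3 probes of other names, gave 0.696, 0.736, 0.917 and 0.941, and 0.35 on the log2 scale. The last 30 bases of these probes show that they read different stretches of sequence.
Hist1h4i (A_51_P505521): cagaagattaattttctcgggggatgaaaa
Hist1h4i (A_55_P2158697): aaaggcctgggcaaaggcggcgccaagcgc
Hist1h4i (A_55_P2174198): tgcgccacaagacctggccagtgtaaaaaa
Hist1h4m, read at its stem-loop, gave 0.235, 0.262, 0.342 and 0.463, so the 72 h array was the highest and the difference was 0.82.

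The other 9 H4 probes that passed were below 0 at 72 h, and the H4 median over 13 probes was -0.19, or -0.08 with quantile normalization. The lowest of them was Hist1h4h, at 0.0696, 0.111, 0.0572 and 0.0631, or 1.76-fold lower than the control array. The untreated array lay near the Rif1 siRNA arrays, and against it the difference was -0.14. Hist1h4k gave 56.2, 57.5, 50.7 and 51.2 with 1 probe and 5.56, 5.88, 5.28 and 4.79 with the other, or -0.17 and -0.30. Both Hist2h4 probes were below 0 as well, at -0.19 and -0.36, as was the measured Hist4h4 probe, at -0.28, and Hist1h4j, at -0.26.

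Of the H2A probes, 13 of 15 were below 0 at 72 h, with a median of -0.15, and 12 of 15 were within 0.5. Several of these probes share a run of bases with other histone probes and can bind the same transcripts, so they are not independent counts. Over the 7 H2A probes that share no such run, 1 was above 0 and the median was -0.22. Hist1h2ah gave 198.2, 191.9, 160.6 and 180.1, and the coding probe of Hist2h2aa2 gave 191.2, 192.1, 161.7 and 174.0, so in both the 48 h array was the lowest. Hist3h2a (chromosome 11, 58768954 to 58769013) gave 0.675, 0.981, 0.411 and 0.596, or 1.65-fold lower at 72 h than the control. Hist1h2al gave 0.0590, 0.0798, 0.0514 and 0.0521, or 1.53-fold lower. For both genes the control array was the highest of the 4, and against the untreated array the differences at 72 h were -0.18 for each. Hist1h2ab gave 54.7, 58.2, 44.5 and 48.2, or -0.27.

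Above 0 among the H2A probes were Hist1h2ae, at 0.118, 0.141, 0.195 and 0.175, and the second Hist2h2aa2 probe, at 0.137, 0.202, 0.270 and 0.287. The latter holds the stem-loop, and its difference at 72 h was 0.50, whereas the coding probe of the same gene stood at -0.14. With quantile normalization 7 of 15 H2A probes were above 0, and the median was -0.0088.

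The H1 genes encode linker histones, which bind the DNA between nucleosomes. Hist1h1c (chromosome 13, 23832018 to 23832077) gave 0.425 untreated, 0.472 with control siRNA, 0.883 at 48 h and 0.828 at 72 h, a 1.75-fold difference at 72 h with no overlap between the arrays with and without Rif1 siRNA. Hist1h1e was lower with Rif1 siRNA, at 11.7, 12.6, 8.17 and 9.04, or -0.48. Hist1h1b gave 12.9, 13.9, 14.7 and 15.6, and Hist1h1a gave 1.62, 1.76, 1.66 and 1.81, so neither left a narrow range. The testis form Hist1h1t stood at -0.15, and the median over the 5 H1 probes that passed was 0.04.

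Among the H3 genes, 4 of 8 probes were above 0, and the median was -0.01. Hist1h3g gave 0.661, 0.696, 1.14 and 1.13, a 1.62-fold difference at 72 h, and Hist1h3a gave 0.309, 0.333, 0.404 and 0.478, or 0.52. Hist1h3i, another H3 probe with the stem-loop, stood at 0.10. Hist1h3d gave 34.1, 35.3, 34.7 and 32.8 and Hist2h3b gave 4.09, 4.47, 3.74 and 3.95, and both lie in the coding part. The plot of differences by class shows that, with Rif1 siRNA, probes of every class spread to both sides of 0 and that H2B and H4 reach highest.

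**Figure D2:**
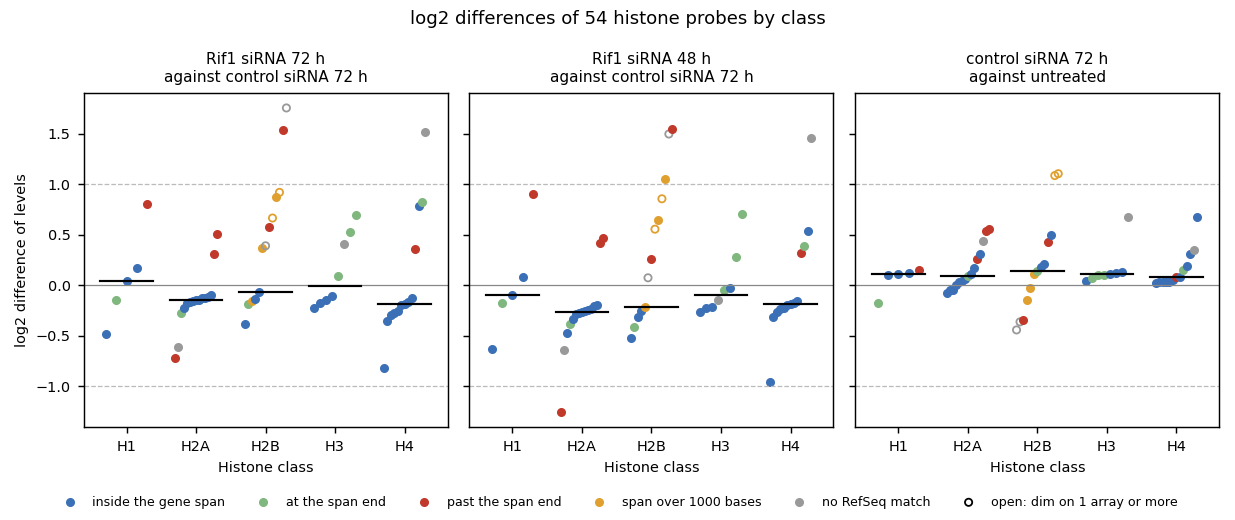
log2 difference of levels (vertical axis) for the 54 histone probes that passed the filter, by class, in 3 comparisons; each point is 1 probe, colored by its position on the gene, open points were dim on 1 array or more, bars are class medians over the filled points, and dashed lines mark 2-fold. At 72 h the H2B median is -0.07 and the H2A median -0.15; the 2 open H2B points above 1 in the right panel were dim in untreated cells and were not counted as over 2-fold.

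The probes were also sorted by where they lie on the gene. These groups were chosen after the values were seen, so they describe these arrays and support nothing further. Of the 57 probes, 52 matched a RefSeq gene (GRCm38.p6), each under a newer symbol (H2bc8 for Hist1h2bg, for example), and a probe was called inside when it ended 20 bases or more before the end of the gene span. Of 30 inside probes, 27 were below 0 at 72 h, with a median of -0.16. Over the 17 inside probes that share no run of bases with another histone probe, 3 were above 0 and the median was -0.17. All 13 inside probes that are annotated to several RefSeq transcripts were below 0, from -0.30 to -0.07.

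Of 7 measured probes that end more than 10 bases past the gene span, 6 were above 0, with a median of 0.50, and Hist3h2a at -0.72 was the exception. Those above 0 were Hist1h1c, Hist1h2ae, Hist1h2bg, Hist2h2aa2, Hist3h2ba and Hist1h4i (A_55_P2174198). Of 7 probes at the very end of the span, 4 were above 0, and the median was 0.10. Of the 5 probes of genes with a span over 1000 bases, all H2B, 3 were well above background on all arrays, and these were Hist1h2bp at 0.88, Hist1h2bc at 0.37 and Hist1h2be at -0.155. Of the 6 probes that hold the stem-loop, 5 were above 0, and the median was 0.51. The last 30 bases of 3 probes past the span end show the sequence that lies there.
Hist1h1c: tagttgtagattaactttgttttgcctcag
Hist1h2bg: gctgccagatacactatcaatttgtaaact
Hist3h2a: ttgaaactgggttaaattgacatgttcaag

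The plot of the difference against the distance from the span end shows both groups, and 3 inside probes above 0, of which Hist1h4i at 0.79 was the highest. With the untreated array in place of the control, the median was 0.96 past the end and -0.11 inside, where 8 of 30 were above 0. Under the other alternatives it was 0.33 to 0.57 past the end. Quantile normalization likewise left 8 of 30 inside probes above 0, with a median of -0.09.

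**Figure D3:**
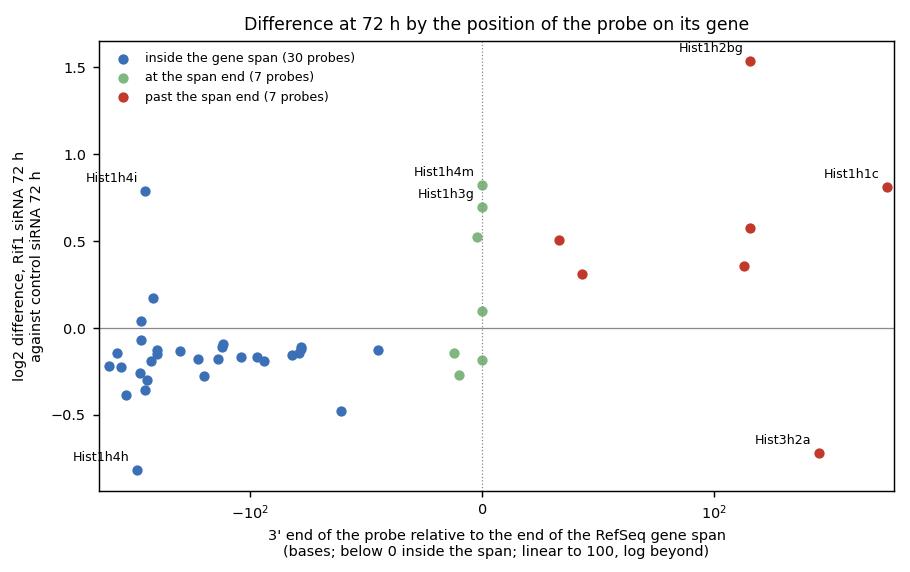
log2 difference at 72 h against control siRNA (vertical axis) of 44 probes by the distance in bases from the end of the RefSeq gene span to the 3' end of the probe (horizontal axis, linear to 100 and log beyond). Inside the span 27 of 30 points are below 0, whereas 6 of 7 points past the end are above 0.

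The values were also set beside probe level and base composition, over probes well above background on all arrays, and did not run evenly with level. The 15 histone probes with a mean level of 10 or more had a median of -0.17 at 72 h, and 14 of them were below 0. Several of the 15 are H2A probes that share runs of bases, so they are not independent counts. The 3138 other probes of that level had a median of -0.15, and 2769 of them were below 0. Of the 15, 11 lay between the lower and upper quartile of the others, -0.22 and -0.07. At 48 h the bright histone probes stood lower than this, with a median of -0.23 beside -0.15 for the others, and 3 of 15 lay between the quartiles of -0.20 and -0.07. At 72 h, 8 of 12 histone probes between levels of 1 and 10 were below 0 with a median of -0.15, beside 4537 of 6476 other probes and a median of -0.08. Between levels of 0.1 and 1, 10 of 15 histone probes were above 0 with a median of 0.35, beside 3449 of 8135 other probes and a median of -0.04. Below a level of 0.1, 6 of 8 histone probes were below 0 with a median of -0.26, beside 2417 of 4722 other probes and a median of -0.0069. Probes past the span end had a median GC content of 35.0% and inside probes of 55.0%. Under 40% GC, 7 histone probes had a median of 0.37 and 8231 other probes one of -0.04. From 40% to 50% GC, 15 histone probes had a median of -0.14, with 8 below 0, and 10031 other probes one of -0.075. From 50% to 60% GC, 17 histone probes had a median of -0.13 and 4048 other probes one of -0.12. From 60% GC on, 11 histone probes had a median of -0.18 and 161 other probes one of -0.14. The part of level and composition in the result was not tested beyond these values.

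**Figure D4:**
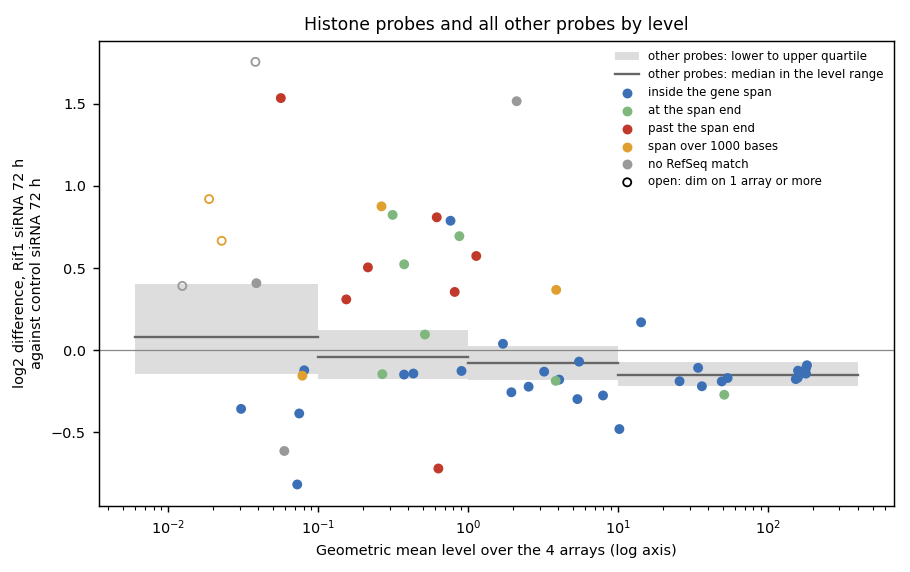
log2 difference at 72 h against control siRNA (vertical axis) of 54 histone probes by geometric mean level (log axis), colored by position, with open points for those dim on 1 array or more; gray bands span the lower to upper quartile of all other probes in 4 ranges of level, with their median as a line. Histone probes with a level of 10 or more mostly lie within the gray band (11 of 15), with Hist1h1e at -0.48 below it and Hist1h1b at 0.17 above it, and dimmer ones lie on both sides of the band.

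At 48 h of Rif1 siRNA, set against the control siRNA array of 72 h, the same control served as above, so the values of both times are given side by side and are not independent. Over 2-fold higher were 3 of the 50 probes well above background on all arrays (Hist1h2bg, Hist1h4i and Hist1h2bp), beside 2.08% of all such probes, and 4 of the 54 that passed, with the dim Hist2h2bb probe, beside 3.17%. Over 2-fold lower was 1 probe, Hist3h2a, beside 0.604% and 1.19%. The median of the 50 was -0.21, with 36 below 0, and that of all probes of this kind -0.07. Hist1h2bg stood at 1.55 (1.53 at 72 h), Hist1h4i (A_51_P505521) at 1.45 (1.52), Hist1h2bp at 1.05 (0.88), Hist1h1c at 0.90 (0.81) and Hist1h3g at 0.71 (0.69). Hist3h2a stood at -1.25 (-0.72 at 72 h), Hist1h4h at -0.96 (-0.82) and Hist1h1e at -0.63 (-0.48). Against the untreated array, Hist3h2a was at -0.72 at 48 h and 0 probes were over 2-fold lower.

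By class, the medians at 48 h were -0.09 for H1, -0.26 for H2A, -0.21 for the 9 H2B probes well above background on all arrays, -0.09 for H3 and -0.18 for H4. By position, they were -0.24 inside the span, where 28 of 30 probes were below 0, and 0.42 past its end, where 6 of 7 were above 0. Over all 13 H2B probes that passed, the median was 0.26, and it was -0.012 with normexp and -0.23 over the brighter probes.

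Between the 2 Rif1 siRNA arrays, 72 h against 48 h, 0 of 54 histone probes were over 2-fold higher, beside 0.491% of all probes, and 0 were over 2-fold lower, beside 0.679%. Small differences ran mostly upward, with 40 of the 50 well above background on all arrays above 0 and a median of 0.09, beside -0.0046 for all such probes. Hist2h3c2 at 0.55, Hist3h2a at 0.53 and Hist1h4m at 0.44 were among the highest, and Hist1h2bc at -0.28 was the lowest. The Rif1 probe itself was 0.95 higher at 72 h than at 48 h.

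Between control siRNA and untreated cells, 0 of 54 were over 2-fold higher, beside 0.585% of all probes, and 0 were over 2-fold lower, beside 1.03%. Here too most histone probes were above 0, 43 of the 50 well above background on all arrays, with a median of 0.11 against -0.0074 for all such probes. All 13 H4 probes and all 8 H3 probes were above 0. Hist2h3c2 and Hist1h4h each stood at 0.67, Hist2h2aa2 (A_55_P1962084) at 0.56 and Hist3h2a at 0.54. Hist1h2bg stood at -0.34. This median, between the 2 arrays without Rif1 siRNA, is close in size to that of -0.14 at 72 h of Rif1 siRNA.

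The promoters of histone genes are known for a TATA box, CCAAT boxes and, in H2B genes, an octamer that Oct proteins bind. Of 46 genes matched to RefSeq, 41 had a promoter sequence (250 bases before to 50 after the start, GRCm38.p6), and the letters were searched on both strands. CCAAT was found in 35 of 41 (85.4%), beside 37.4% of all 32851 promoters, and was in all of the H1, H2A, H2B and H3 genes but in 2 of 8 H4 genes. TATAA was found in 34 of 41 (82.9%), beside 24.9%. The octamer ATTTGCAT was found in 12 of 41 (29.3%), beside 1.74%, in 7 of 13 H2A and 5 of 9 H2B promoters and in 0 of the 19 others. The windows of Hist1h2ae and Hist1h2bg overlap and hold the same octamer, as do those of Hist1h2aa and Hist1h2ba. Each of these sites is counted for both genes of its pair. A match is a description and says nothing of binding.

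By probes matched to RefSeq, Hist1h2bg and Hist1h2ae alone of the measured genes with the octamer were above 0 at 72 h. The others were below 0, among them Hist3h2a at -0.72 and Hist1h2bb at -0.39. Hist1h2bp, at 0.88, holds no octamer in its window. Hist1h2bg, the H2B gene with the largest difference among probes above background on all arrays, is shown with its octamer in capitals (H2bc8, plus strand, chr13:23571150-23571449 in GRCm38.p6, RefSeq).
Hist1h2bg promoter: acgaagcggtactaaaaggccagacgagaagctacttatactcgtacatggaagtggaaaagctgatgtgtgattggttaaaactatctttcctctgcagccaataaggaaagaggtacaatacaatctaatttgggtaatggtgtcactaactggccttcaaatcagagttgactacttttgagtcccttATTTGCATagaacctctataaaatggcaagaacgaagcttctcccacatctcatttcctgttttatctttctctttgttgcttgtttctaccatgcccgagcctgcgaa
This stretch lies between divergent genes, since the start of Hist1h2ae is 180 bases away on the other strand. At 72 h Hist1h2ae stood at 0.31 and Hist1h2bg at 1.53, both read past the end of the gene. In the pair Hist1h2an and Hist1h2bp, with starts 240 bases apart, the coding probe of Hist1h2an stood at -0.15 and Hist1h2bp at 0.88. In the testis pair Hist1h2ba and Hist1h2aa, 281 bases apart, the values were -0.13 and -0.15.

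Lists of genes that act with the histones had no member over 2-fold at 72 h, and at 2.83% higher and 1.0% lower over all probes, lists of this size would hold few or none. Of the 15 genes for transcription and 3' processing of histone mRNA, 14 were measured, 0 were over 2-fold changed at 72 h, and the median was -0.10. Slbp stood at -0.0038, Lsm11, a part of the U7 snRNP, at -0.215 and Zfp473, another factor of 3' processing, at -0.245, while the Npat probe did not pass the filter. Of 26 measured genes of G1/S and S phase, 0 were over 2-fold changed, 21 were below 0, where 64.1% of all probes well above background on the 4 arrays were, and the median was -0.10, with Cdk2 at -0.26. Of 20 G2/M genes 0 were over 2-fold changed at 72 h, with a median of -0.14, and at 48 h all 20 were below 0, with a median of -0.29, where 62.0% of all such probes were below 0. Most genes of the S phase and G2/M lists have levels over 1, where larger shares of probes were below 0. At 72 h these were 4537 of 6476 non-histone probes between levels of 1 and 10 and 2769 of 3138 from 10 on. At 48 h they were 4337 of 6476 and 2687 of 3138.

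Of 12 replacement variants, which are mostly made outside S phase and from polyadenylated mRNA, 0 were over 2-fold changed. H2afx, which marks DNA breaks once phosphorylated, gave 35.0 untreated, 34.9 with control siRNA, 18.7 at 48 h and 24.9 at 72 h, or -0.48 at 72 h and -0.90 at 48 h. Cenpa, the centromeric H3, stood at -0.38, and the linker variant H1f0, known from non-dividing cells, at 0.37. Of 23 histone chaperones 0 were over 2-fold changed, and their median was -0.06. The 3 testis-type histones lay between -0.15 and -0.13.

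The 2C genes, which are active in embryos of the 2-cell stage, serve as a contrast. The paper lists most of these families as raised in this experiment, so their rise was known beforehand. Over 2-fold higher at 72 h were 9 of 10 measured 2C genes, with a median of 4.30. With control siRNA against untreated cells, all 10 were already above 0, with a median of 0.93. Of these, 3 were over 2-fold higher, beside 0.585% of all probes. Lists for other cell types gave mixed values. The 5 fibroblast genes well above background on all arrays were above 0 at 72 h, with a median of 0.65 and 0 over 2-fold. Col3a1, dim on both arrays without Rif1 siRNA, was at least 1.26-fold higher at 72 h, while Lum and Postn did not pass the filter and the summed level of the list was 4.30, 3.87, 4.51 and 4.54 (untreated, control siRNA, 48 h, 72 h). A sum weighs brighter probes more and can hide the change of a single gene. Thy1 gave 3.51, 3.11, 3.43 and 3.24 in that order of arrays, or 0.06 at 72 h. Col1a1 and Col1a2 each stood at 0.82 and Dcn at 0.65. Of 9 genes of differentiated derivatives, 6 were below 0 at 72 h, from -0.34 for Gata6 to -0.05 for Pax6, and the median was -0.12. Of the others, Cdx2 was over 2-fold higher at 72 h, as was Afp, which was dim on both arrays without Rif1 siRNA (at least 2.70-fold), and the summed level was 2.10, 1.73, 1.94 and 1.57. At 48 h the list of differentiated derivatives ran the other way, with 6 of 9 genes above 0 and a median of 0.36. The part of these lists in the histone values was not tested.

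**Figure D5:**
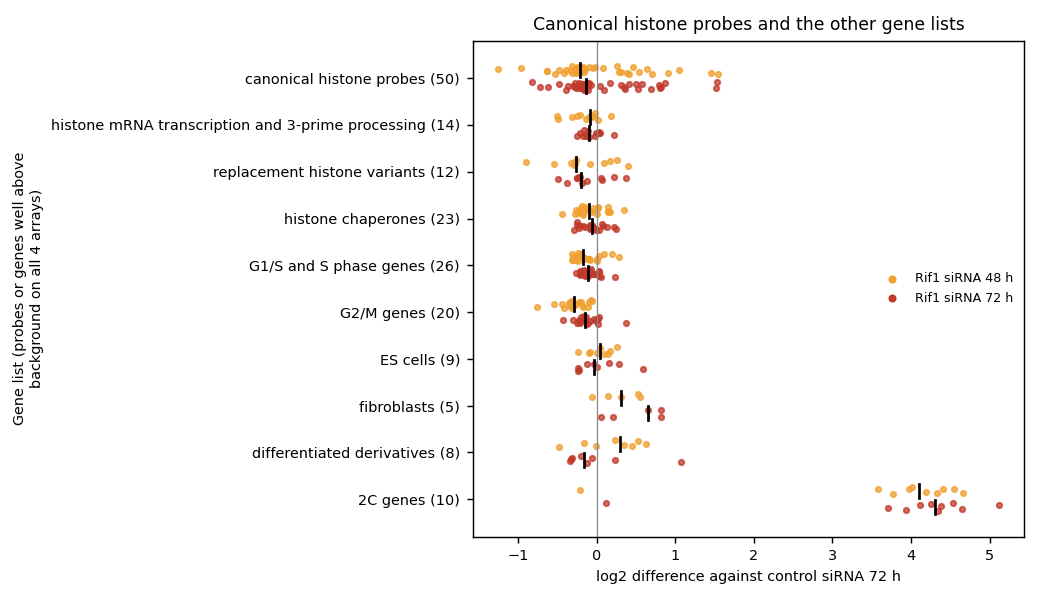
log2 difference against control siRNA at 48 h and 72 h of Rif1 siRNA (horizontal axis) for the 50 canonical histone probes and the genes of 9 lists (rows) that were well above background on all 4 arrays; each point is 1 probe or gene and bars are medians. The histone probes spread more widely than the S phase genes around similar medians (-0.14 and -0.10 at 72 h), and the 2C genes lie far to the right.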

How the data were processed

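E14tg2a cells were measured on 4 1-color Agilent arrays with 1 array a condition. The authors deposited the output of Agilent Feature Extraction 11.5.1.1 (submitters' processing notes), in which each spot has an intensity that the software had background-subtracted and detrended. A second table deposited by the authors holds the ratio of each intensity to the array's 75th percentile, and it equals the levels computed here within 0.0004 (log2) on all 43020 spots.

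Here each processed signal was divided by that percentile, outlier spots were left out (0 of them in histone probes), and the log2 values of repeated spots were averaged. A probe passed when it reached the 20th percentile on 1 array or more and was flagged as detected, saturated or an outlier on 2 of 4 or more, which left 27706 probes. The counts used a threshold of 2-fold, with dim signals set to the bound. Probes were matched to RefSeq by accession, and the probe's start is taken as counted from 0.

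The histone probes and the gene lists were chosen with earlier results of these data known. Named were Rif1, the 2 highest-level probes of a class and the 10 largest rises and falls at 72 h (well above background on either side). Also named were probes over 2-fold, genes whose probes differ in direction by over 0.5 and members never above background. Of a list, up to 3 genes were planned, and more were named for some lists. Each list gene was read by its passing probe with the highest mean level. The steps were tested on simulated data. Software was R 4.3.3 with limma 3.58.1 (normexp with offset 50, quantile normalization) and Python 3.11.15 (numpy 2.4.6, pandas 2.3.3, matplotlib 3.10.9).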

Additional observations from a re-analysis of the deposited data

How the results depend on the processing

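Alternatives were compared with the values above for counts (a change of over 1.5 times) and medians (a change of over 0.256 on the log2 scale, the SD of the control siRNA against untreated differences over probes well above background on both, not a replicate SD). Of 306 alternative values for counts and medians over all probes or a class, 286 stayed within these limits. Most of the medians are smaller than 0.256, so a median can vanish or change sign and stay within the limit. The H2A median at 72 h, for example, went from -0.15 to -0.0088 with quantile normalization. The deposited ratios and the kept outlier spots could hardly move a histone value, so the tally does not measure robustness. The count of probes over 2-fold higher at 72 h, 3, was 1 with normexp (beside 1.5% of all probes under that setting), 1 with only the brighter probes (2.04%), 10 at a 1.5-fold threshold (5.52%) and 5 with the untreated array in place of the control (2.54%), an alternative added after the data were seen; the count over 2-fold lower, 0, was 3 at 1.5-fold (2.37%). At 48 h the higher count, 4, was 1 with normexp (1.62%), 2 with the brighter probes (2.31%) and 8 at 1.5-fold (6.82%), and the lower count, 1, was 2 with quantile normalization (1.47%), 4 at 1.5-fold (3.31%) and 0 against the untreated array (1.35%). Between control siRNA and untreated cells, the higher count, 0, was 2 at 1.5-fold (1.76%) and 2 with dim signals as given (1.83%). The H2B median over the 13 probes that passed, 0.39 at 72 h and 0.26 at 48 h, was at 72 h -0.071 with normexp and -0.10 with the brighter probes, and at 48 h it was -0.012, -0.23 and, against the untreated array, 0.68. Over the H2B probes well above background on all 4 arrays, an alternative also added after the data were seen, it was -0.0695 at 72 h and -0.2127 at 48 h, since the 4 dim probes are left out. The cause of these shifts was not tested. The median of all histone probes at 72 h ranged from -0.14 to -0.01 over the alternatives, that of inside probes from -0.17 to -0.09 and that of probes past the span end from 0.33 to 0.96. Under normexp the median of all probes moved to -0.12. Of the genes over 1.5-fold at 72 h, Hist2h2be turned to -0.07 and Hist1h2bq fell to 0.12 with normexp. No paired analysis was possible because the design holds a single array for every condition and no test was run.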

Other observations

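Beside the 57 probes, 2 probes are described as histone cluster genes (H4d and H2ap) but carry a transcript identifier in place of a symbol, so the rule did not take them. The H4d probe gave 90.7 untreated, 89.2 with control siRNA and, with Rif1 siRNA, 78.4 at 48 h and 75.6 at 72 h, or -0.24 at 72 h, and the H2ap probe gave 179.6, 182.6, 154.3 and 149.8, or -0.29. On both probes the 2 Rif1 siRNA arrays lay below the other 2 arrays, as they did on 77.7% of the 3138 probes of other genes with a mean level of 10 or more.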
